A study of Rattus norvegicus with 18 samples.

Results

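The IFIT family, the interferon-induced proteins with tetratricopeptide repeats, was taken as the rows of the deposited table whose gene symbol is Ifit1, Ifit2 or Ifit3, which are 3 of 32883 genes. Transcripts were measured in cortical collecting ducts dissected by hand from kidneys of male Sprague-Dawley rats, an outbred strain. In the LPS group the ducts were taken 3 h after lipopolysaccharide, the outer membrane component of Gram-negative bacteria, was injected into the peritoneum, and in the Vehicle group 3 h after normal saline given the same way. Each group holds 3 numbered samples with 3 libraries each, 18 libraries in all, and the design text calls the samples paired without saying what a pair shares. The sources used here state neither the dose and the age of the rats nor how many ducts or animals stand behind a library.

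IFIT proteins are built from stacked helical repeats that form pockets for RNA or for partner proteins. In humans IFIT1 grips the capped end of RNA that lacks methylation on the first nucleotide, as many viral RNAs do, and keeps it from translation, while IFIT3 binds and stabilizes IFIT1, and IFIT2 joins the same complexes. Resting cells usually hold little of these transcripts. They are switched on when interferon signals through its receptor to a complex that contains IRF9, or directly by IRF3, a factor that TLR4, the receptor for LPS, activates through its TRIF arm.

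The promoter of Ifit3 is shown because both factors are known to bind interferon-stimulated response elements there, and the promoters of Rsad2 and Cxcl10 because these genes had the values closest to Ifit2 and Ifit3 in the LPS libraries. The inner of 2 starts listed for Ifit1bl, a paralog with a smaller change, is shown as well, since it holds a match. The window of the other start, at chr1:241580427-241580726 (minus strand), holds 0 matches. Of the 3 members, 1 (Ifit3) matched an entry of the RefSeq promoter sequences on GRCr8. Each window runs from 250 bases before to 50 bases after a start, 5′ to 3′ on the gene's own strand. Capitals mark matches to the element's core, which is GAAA, any 2 bases and GAAA again, or on the other strand TTTC, any 2 bases and TTTC. The windows lie at chr1:241527076-241527375 (plus strand) for Ifit3, chr6:48788071-48788370 (minus strand) for Rsad2, chr14:15988816-15989115 (plus strand) for Cxcl10 and chr1:241543506-241543805 (minus strand) for Ifit1bl.
Ifit3: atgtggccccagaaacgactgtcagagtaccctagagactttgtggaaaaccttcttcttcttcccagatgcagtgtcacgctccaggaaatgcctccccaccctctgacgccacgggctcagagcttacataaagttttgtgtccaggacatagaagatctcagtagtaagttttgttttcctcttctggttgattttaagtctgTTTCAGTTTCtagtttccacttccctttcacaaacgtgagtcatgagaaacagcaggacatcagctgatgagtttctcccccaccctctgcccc
Rsad2: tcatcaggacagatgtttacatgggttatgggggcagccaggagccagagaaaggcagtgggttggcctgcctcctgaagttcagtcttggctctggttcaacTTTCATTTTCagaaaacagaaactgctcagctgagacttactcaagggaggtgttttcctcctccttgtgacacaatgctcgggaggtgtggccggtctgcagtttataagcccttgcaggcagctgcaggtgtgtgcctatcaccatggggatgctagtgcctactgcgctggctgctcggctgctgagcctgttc
Cxcl10: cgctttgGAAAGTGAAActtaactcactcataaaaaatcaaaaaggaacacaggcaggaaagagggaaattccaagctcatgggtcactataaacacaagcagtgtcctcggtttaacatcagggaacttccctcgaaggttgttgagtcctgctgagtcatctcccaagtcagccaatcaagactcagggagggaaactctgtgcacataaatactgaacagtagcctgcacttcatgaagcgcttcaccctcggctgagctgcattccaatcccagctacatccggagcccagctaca
Ifit1bl: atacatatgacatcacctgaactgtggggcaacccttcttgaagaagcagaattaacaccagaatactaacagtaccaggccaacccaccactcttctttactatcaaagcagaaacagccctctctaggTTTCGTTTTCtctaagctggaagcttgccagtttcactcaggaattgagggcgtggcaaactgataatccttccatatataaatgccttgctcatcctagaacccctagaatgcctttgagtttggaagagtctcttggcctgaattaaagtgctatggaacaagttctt

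The Ifit3 match begins 44 bases before the start, the Rsad2 match 147, the Cxcl10 match 243 and the Ifit1bl match 120. Across the RefSeq table, 3.92% of 33469 promoter windows of this length hold the core on either strand. Among the 37 other interferon-stimulated genes listed for this work, 32 have an entry and 23 of these hold it in at least 1 window, against 4.12% of 27457 genes. Those genes were listed as ones induced through this element, so a high share follows in part from the choice. The 10 with an entry among the 11 interferon genes include 4 with the core, and the 19 with an entry among the IFIT partners include 0. Of further lists used below, LPS sensing holds it in 1 of 8 genes with an entry and receptors and kinases in 0 of 7. Feedback genes hold it in 1 of 4 and RNA sensors in 2 of 5. A match is a run of letters and not a measured site.

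Before the values, 1 sample needs mention. On the first principal component of all tested genes, which held 56.1% of the variance, LPS 1 had a mean score of 16.9, against 70.1 in LPS 2 and 68.4 in LPS 3 and -47.8, -50.9 and -56.8 in Vehicle 1, 2 and 3. It thus lay between the groups. Calls of the members and of some of the gene lists are given with and without it, and other results with it only. Values are TPM, a transcript abundance that is corrected for transcript length and scaled to the same total in each library. TPM keeps no read number, so the depth is unknown. A library listed from 11399 to 12704 genes at 1 TPM or more. Principal cell markers, which define the collecting duct with the intercalated cells, summed to between 9124 and 12673 TPM in LPS samples and between 15408 and 17055 TPM in Vehicle samples, and 5 of the 8 were called lower in LPS, where 22.2% of all tested genes were. Proximal tubule markers summed to at most 14.6 TPM in LPS samples and 16.8 TPM in Vehicle samples. Thick ascending limb markers summed to 91.1, 234 and 123 TPM in LPS 1, 2 and 3, against 135, 109.5 and 152 TPM in Vehicle 1, 2 and 3, with Umod at 127 TPM in LPS 2. Within that list Cldn16 and Cldn19 read from 21.4 to 111 TPM across samples, and Slc12a1 from 0.17 to 4.34 TPM. The markers of the labelled tissue were thus present at high levels, with some markers of the thick ascending limb list. The distal convoluted and connecting tubules had no marker list here. Calb1, on none of the lists, stood at 4943 TPM in Vehicle 1 and from 25.6 to 211 TPM in the other samples.

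Ifit3, the scaffold member, had the largest rise of the 12393 genes tested. It averaged 2103, 6468 and 5850 TPM in LPS 1, 2 and 3, against 3.79, 1.59 and 4.18 TPM in Vehicle 1, 2 and 3. The 9 LPS libraries ran from 1863 to 7240 TPM and the 9 Vehicle libraries from 0.57 to 6.26 TPM. The groups thus do not overlap in any library, and LPS 1 was the lowest LPS sample. The change was 10.16 on the log2(TPM + 1) scale (SE 0.41, 95% interval 9.19 to 11.13, limma adjusted p = 0.000113), with rises of 8.91, 11.37 and 10.20 in the 3 pairs. Of all genes tested, 7.17% were called higher at an adjusted p under 0.05, 22.2% were called lower, in 9.82% every LPS sample lay above every Vehicle sample, and in 5.12% every LPS library lay above every Vehicle library. By level, Ifit3 ranked 58th, 8th and 13th among all rows of the table in LPS 1, 2 and 3, against 9860th, 11366th and 10008th in Vehicle 1, 2 and 3. In bulk ducts, more cells carrying a transcript and more transcript per cell cannot be told apart.

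Ifit2, a member that in other species also limits viral replication and can drive cell death, rose in the same samples at a lower level. Its means were 280.4, 1049 and 1363 TPM in LPS 1, 2 and 3, against 2.67, 0.427 and 4.41 TPM in Vehicle 1, 2 and 3. Libraries ran from 232 to 1510 TPM in LPS and from 0.27 to 6.30 TPM in Vehicle, again with no overlap and with LPS 1 the lowest LPS sample. The change was 7.96 (log2, SE 0.53, 95% interval 6.71 to 9.20, limma adjusted p = 0.000408), the 5th largest of all tested genes, with 6.26, 9.48 and 8.13 in the 3 pairs. Pair 2 had the largest change of Ifit2 and of Ifit3, and its Vehicle sample the lowest level of both.

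Both calls of a rise held without LPS 1. Dropping that sample and the block gave 8.65 for Ifit2 (limma adjusted p = 0.000292) and 10.68 for Ifit3 (adjusted p = 7.01e-05). Dropping pair 3 left changes of 7.87 and 10.14 but ended both calls, at a limma adjusted p = 0.196 each, in a fit where 0 of the 12393 genes were called and 738 were higher at an unadjusted p under 0.05. Taking the median of a sample's libraries also ended both calls, at adjusted p = 0.0560 for Ifit2 and 0.0545 for Ifit3.

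The row with the symbol Ifit1, the name of the cap-binding member, did not follow the other two, and its annotation line names a 1-like protein instead. Its means were 0.153, 2.72 and 1586 TPM in LPS 1, 2 and 3, against 0, 0.900 and 0.140 TPM in Vehicle 1, 2 and 3. The 3 libraries of LPS 3 read 1526, 1438 and 1795 TPM, so the high level was found in each of them. The libraries of LPS 1 read from 0.04 to 0.34 TPM and those of LPS 2 from 1.78 to 3.56 TPM, against 0 TPM in the 3 of Vehicle 1, 0.39 to 1.42 TPM in Vehicle 2 and 0.04 to 0.21 TPM in Vehicle 3. LPS 1 thus lay among the Vehicle samples, while LPS 2 was above every Vehicle library. The log2 changes in the 3 pairs were 0.20, 0.98 and 10.44, with a mean of 3.87 (SE 1.78, 95% interval -0.33 to 8.08, limma adjusted p = 0.127), and Ifit1 was not called. Ifit1 passed the filter, an average of 1 TPM or more, only through LPS 3, so no fall could have been called. Without pair 3 the change was 0.59 (adjusted p = 0.319), and without LPS 1 and the block it was 5.89 (adjusted p = 0.0824). Vehicle 2 had the highest Ifit1 of the Vehicle samples and the lowest Ifit2 and Ifit3.

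**Figure D1:**
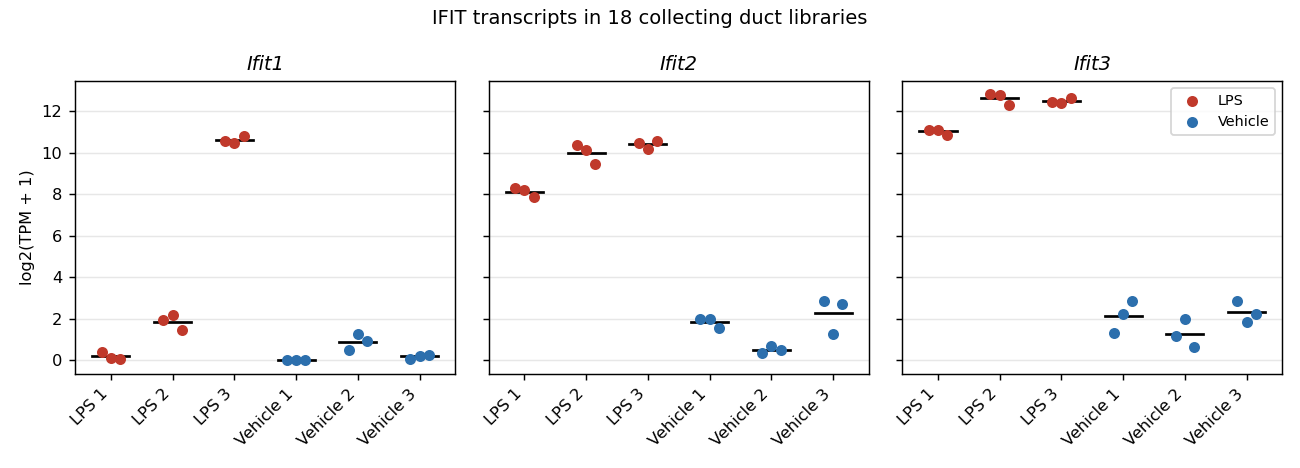
Level of each IFIT transcript, as log2(TPM + 1), in the 3 libraries (points) of each LPS and Vehicle sample, with the sample mean as a bar. Ifit2 and Ifit3 are high in all 9 LPS libraries, with LPS 1 below LPS 2 and LPS 3, while Ifit1 is high in the 3 libraries of LPS 3 alone, at 1438 to 1795 TPM.

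The distance between LPS 3 and the next sample was larger for Ifit1 than for any other tested gene. The gap from the highest to the next highest of the 6 sample means was 8.76 on the log2(TPM + 1) scale for Ifit1, against a median of 0.139 over the 12393 genes. It was 0.42 for Ifit2 and 0.13 for Ifit3. The genes with a gap of at least 4 were 4 in number, and the other three had their high value in another sample: Fam111a in Vehicle 3 (gap 5.59), Calb1 in Vehicle 1 (4.75) and AABR07007730.1 in LPS 1 (4.19). This measure was chosen after the Ifit1 values were seen and is a description.

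**Figure D2:**
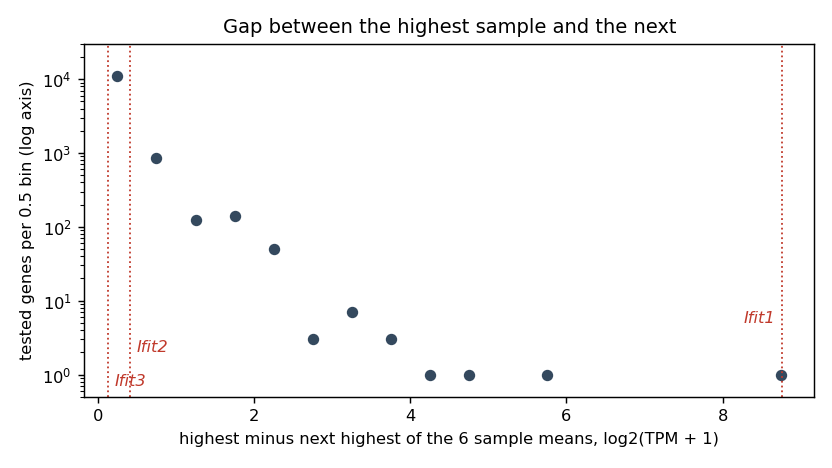
Number of tested genes (log axis) by the gap between the highest and the next highest of the 6 sample means, in bins of 0.5 on the log2(TPM + 1) scale, with dotted lines at the 3 members. Ifit1, at 8.76, is alone at the right end, and Ifit2 and Ifit3 lie at 0.42 and 0.13.

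LPS 3 also carried the highest neutrophil marker sum. The 6 neutrophil markers summed to 5.95, 2.17 and 81.0 TPM in LPS 1, 2 and 3, against 0.0933, 0.373 and 0.470 TPM in Vehicle 1, 2 and 3. Within LPS 3 the sums were 1.43, 14.5 and 227 TPM in libraries 1, 2 and 3, and Ifit1 stood at 1526, 1438 and 1795 TPM in the same libraries. In library 1, S100a8 and S100a9 were listed at 0 TPM, and the sum of 1.43 TPM came from other markers of the list. These 2 were the markers that passed the filter. Both were called higher in LPS, by 1.71 and 1.81 on the log2 scale (limma adjusted p = 0.0420 and 0.0371), beside 7.17% of all tested genes. With Vehicle means of at most 0.133 TPM, they passed the filter only through their LPS values, so no fall could have been called. Their highest values, 86.9 and 128 TPM, were in library 3 of LPS 3. The part of neutrophils in the Ifit1 level was not tested.

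The 2 members that rose kept a steadier ratio to each other than either kept to Ifit1. The change of Ifit3 exceeded that of Ifit2 by 2.64, 1.89 and 2.07 in the 3 pairs (log2, mean 2.20 ± 0.39, SD, n = 3 pairs), larger in 3 of 3 pairs, with an exact two-sided sign-flip permutation p = 0.25, the smallest that 3 pairs allow, and 0.5 adjusted over the 3 differences between members. Ifit3 exceeded Ifit1 by 8.71 and 10.40 in pairs 1 and 2 and differed by -0.24 in pair 3 (exact permutation p = 0.5). Ifit2 exceeded Ifit1 by 6.07 and 8.51 in pairs 1 and 2 and differed by -2.31 in pair 3 (exact permutation p = 0.5). No difference between members can therefore pass a threshold of 0.05 by this test.

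**Figure D3:**
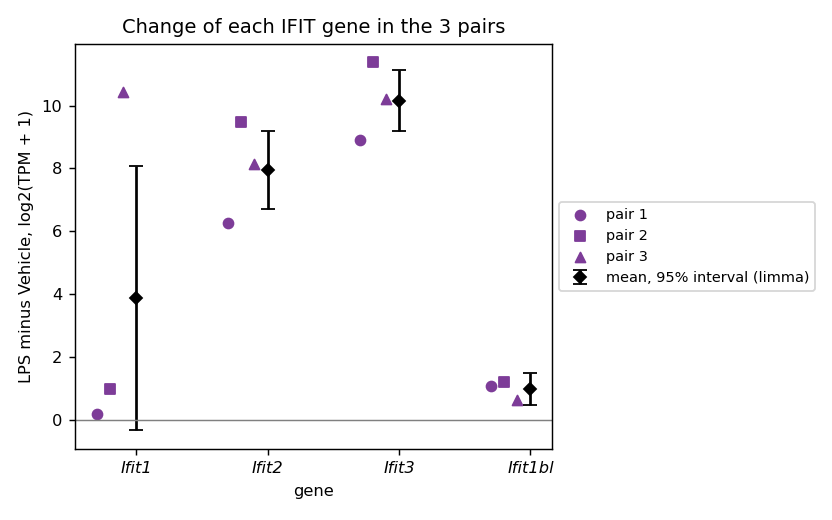
LPS minus Vehicle on the log2(TPM + 1) scale for the 3 members and the paralog Ifit1bl, with each pair as a symbol and the mean with its 95% limma interval as a black diamond. The 3 pairs of Ifit2 and of Ifit3 lie between 6.26 and 11.37, and those of Ifit1 at 0.20, 0.98 and 10.44.

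As TPM is per length, the members' levels can be summed and compared. The 3 members together made up 0.238%, 0.752% and 0.880% of all TPM in LPS 1, 2 and 3, against 0.000646%, 0.000292% and 0.000873% in Vehicle 1, 2 and 3. Ifit3 held 88.3%, 86.2% and 66.5% of the family's TPM in LPS 1, 2 and 3, and Ifit2 held 11.7%, 13.8% and 15.5%. Ifit1 held 0.00616% and 0.0357% in LPS 1 and 2 and 18.01% in LPS 3, where its level was above that of Ifit2 in 3 of 3 libraries. The ratio of Ifit3 to Ifit2 was 6.06 ± 1.63 in LPS samples and 2.15 ± 1.33 in Vehicle samples (SD, n = 3 each). Single Vehicle libraries ranged from 0.483 to 5 in that ratio, where both genes read a few TPM, so the Vehicle shares are imprecise.

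In LPS the members varied more between samples than between the libraries of a sample. Among LPS libraries of a sample the SD of log2(TPM + 1) was 0.26 for Ifit1, 0.31 for Ifit2 and 0.20 for Ifit3, where the tested genes as a whole had a median of 0.19. Between LPS samples the SD was 5.60, 1.21 and 0.89 for the 3 members, against a median of 0.25. In Vehicle the SD between samples was 0.47 for Ifit1, 0.93 for Ifit2 and 0.56 for Ifit3, against a median of 0.17, and that between libraries was 0.24, 0.54 and 0.67, against a median of 0.20. In Vehicle the libraries of a sample thus differed as much as the samples for Ifit3 and for the median gene.

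Nearest to Ifit2 over the 9 LPS libraries was Rsad2, which encodes viperin, an antiviral radical SAM enzyme. Each value was taken as log2(TPM + 1) minus the gene's own Vehicle mean, and the root mean square difference was 0.29. This measure counts the size of the rise as well as its course over the libraries, so a near gene need not share a pattern. Rsad2 stood at 377, 1123 and 1452 TPM in LPS 1, 2 and 3, against 4.55, 0.897 and 2.01 TPM in Vehicle 1, 2 and 3, close to Ifit2 in each LPS sample but not in Vehicle, where Vehicle 1 was the highest for Rsad2 and Vehicle 3 for Ifit2. The next nearest were Mx1 (0.77), an antiviral dynamin-like GTPase gene, Lcn2 (0.87), the iron-sequestering lipocalin gene, Oasl (0.89), an oligoadenylate synthase-like gene, and RGD1305184 (0.90), which the table annotates as an interferon-gamma-inducible GTPase. The 9 libraries come from 3 samples, and all 5 genes have the step between LPS 1 and the other LPS samples.

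Cxcl10, the gene of a chemokine for T cells, was nearest to Ifit3, at a root mean square difference of 0.60. Its means were 2627, 13478 and 13271 TPM in LPS 1, 2 and 3, against 10.04, 4.57 and 12.02 TPM in Vehicle 1, 2 and 3. Further from Ifit3 came Cxcl11 (1.49), Rsad2 (1.99), Ubd (2.57), the gene of a ubiquitin-like modifier, and Lcn2 (2.81). Ifit3 had the largest rise, and these 5 genes come in the order of their own rises, 9.73, 9.07, 8.19, 7.83 and 7.39. The order thus mostly reflects the size of the rise. For Ifit1 the 5 nearest were all at least 3.65 away: Batf2 (3.65), Ccn1 (3.69), Hcar2 (3.76), Casp4 (3.81) and Sectm1b (3.83). Batf2, a leucine zipper factor gene, had 3.98, 8.94 and 26.5 TPM in LPS 1, 2 and 3, against 0, 0.123 and 0.0533 TPM in Vehicle 1, 2 and 3. No tested gene therefore came near the Ifit1 values by this measure, which also counts the size of the rise.

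**Figure D4:**
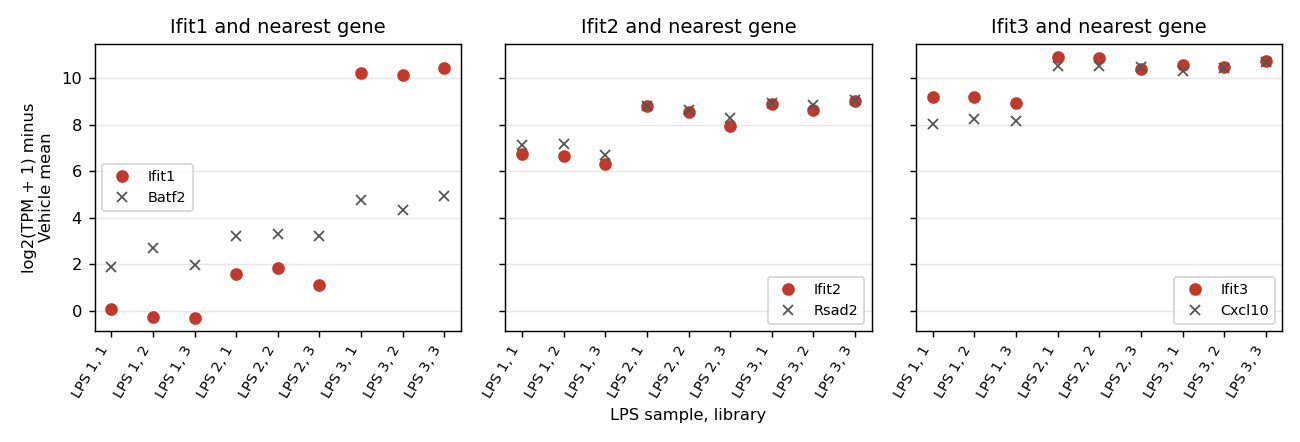
Each member (red circles) and its nearest tested gene (crosses) in the 9 LPS libraries, as log2(TPM + 1) minus the gene's own mean over the Vehicle libraries. Rsad2 and Cxcl10 lie at root mean square differences of 0.29 and 0.60 from Ifit2 and Ifit3, whereas Batf2 is 3.65 from Ifit1. The measure includes the size of the rise.

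In the table, 4 rows have a symbol that starts with Ifit and a digit, and the fourth is Ifit1bl, a paralog of Ifit1. It averaged 13.1, 12.3 and 11.5 TPM in LPS 1, 2 and 3, against 5.65, 4.85 and 6.997 TPM in Vehicle 1, 2 and 3. The libraries of the groups do not overlap, and LPS 1 was here the highest LPS sample. The change was 0.97 (log2, SE 0.22, limma adjusted p = 0.0233), in 3 of 3 pairs. The table's annotation lines name the Ifit1bl row as repeats protein 1 and the Ifit1 row as its 1-like protein, the reverse of the symbols, so which product each row stands for is uncertain. The 2 rows may also share reads, which the authors' counting splits by estimate.

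In RefSeq's GRCr8 annotation the 4 genes lie side by side on chromosome 1 in the order Ifit2, Ifit3, Ifit1bl and Ifit1, with 0 other coding genes between them and with Ifit1 inside the span of Ifit1bl. The tested coding genes nearest on the Ifit2 side were called higher. Over all tested genes 7.17% were called higher and 22.2% lower, and a link between neighbours was not tested. Lipa, the lysosomal acid lipase gene, rose by 0.95 (log2, limma adjusted p = 0.00791), Ch25h, which encodes the enzyme that makes the antiviral sterol 25-hydroxycholesterol, by 3.84 (adjusted p = 0.00029) and Fas, a death receptor gene, by 2.97 (adjusted p = 0.00504). The fourth gene on that side, Acta2, was below the filter. Ch25h averaged 46.2, 25.9 and 35.2 TPM in LPS 1, 2 and 3, against 3.13, 0.530 and 1.28 TPM in Vehicle 1, 2 and 3, and thus lacks the low LPS 1 of Ifit2 and Ifit3. On the Ifit1 side, Slc16a12 (-0.50, adjusted p = 0.158) and Kif20b (-0.86, adjusted p = 0.0534) were not called, and Pank1, a pantothenate kinase gene, fell by 1.49 (adjusted p = 0.0242). With median-ratio scaling Pank1 was not called, at -1.11 with adjusted p = 0.0826. LPS 3 was not set apart in these neighbours as it was in Ifit1. Fas had 15.8 TPM in LPS 2 and 9.01 TPM in LPS 3, Lipa 184 and 221 TPM, and Slc16a12 2.54 and 2.45 TPM.

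Upstream of the family, no interferon gene passed the filter. All 11 listed had a row and 0 a mean of 1 TPM. Ifnb1, the interferon beta gene, averaged 0.236 ± 0.232 TPM in LPS samples and was listed at 0 in Vehicle samples, and Ifna1 averaged 0.318 ± 0.295 TPM in LPS and 0.341 ± 0.230 TPM in Vehicle (SD, n = 3 each). By sample, Ifnb1 stood at 0, 0.463 and 0.243 TPM in LPS 1, 2 and 3. Ifng, the interferon gamma gene, stood at 0.963 TPM in LPS 1 and was listed at 0 in all other samples. Of the LPS sensing and TRIF arm list, 9 of 11 genes had a row and 8 were tested, of which 4 rose and 0 fell, against 7.17% and 22.2% of all tested genes. Irf7, an interferon-induced amplifier of interferon transcription, rose by 6.36 (SE 0.46, limma adjusted p = 0.000552), and Cd14, the LPS co-receptor gene, by 1.03. Tbk1, the kinase gene that acts on IRF3, rose by 0.82 (adjusted p = 0.0370), but was not called under median-ratio scaling (1.23, adjusted p = 0.0572) or quantile normalization (1.05, adjusted p = 0.0593). Irf3 itself stood at 57.7 ± 4.99 TPM in LPS and 65.2 ± 9.47 TPM in Vehicle and was not called. Tlr4 was below the filter.

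The receptor and kinase list had 9 tested genes, of which 4 rose and 0 fell, where 7.17% of all tested genes rose and 22.2% fell. The type I interferon receptor genes differed, with Ifnar2 higher by 1.74 (adjusted p = 0.00925) and Ifnar1 not called at -0.02 (adjusted p = 0.932), a difference between them that was not tested. Jak2 rose by 1.81 (adjusted p = 0.0252) without a call under either scaling (adjusted p = 0.0663 and 0.0602). Among the listed factors that bind the response element, Stat2 rose by 2.17, Irf9 by 2.11, Irf2 by 1.77 and Irf1 by 5.52. Irf9 averaged 144 ± 4.15 TPM in LPS and 32.8 ± 6.62 TPM in Vehicle (SD, n = 3 each). Of 5 feedback genes 3 rose, beside the same 7.17%, among them Usp18, which removes ISG15 and blocks the receptor, by 5.37 (adjusted p = 0.000428), and Socs1 by 6.25. Socs3, the third, was not called under either scaling (adjusted p = 0.109 and 0.112). In pair 1 it was lower in LPS, at 62.3 TPM in LPS 1 against 146 TPM in Vehicle 1.

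Of 8 tested RNA sensor genes 7 rose, beside 7.17% of all tested genes, with Dhx58, Ifih1 and Ddx58, the RIG-I-like receptors, higher by 4.91, 4.04 and 2.81. Mavs, the adaptor these sensors share, stood at 39.1 ± 14.4 TPM in LPS and 63.2 ± 5.11 TPM in Vehicle and was not called (-0.74, adjusted p = 0.0605). Its LPS means were 55.4, 28.2 and 33.6 TPM in LPS 1, 2 and 3. Without LPS 1 and the block, 7 of the 8 sensor genes rose and 1 fell, in a fit that called 5750 of 12393 genes lower. The other interferon-stimulated genes, 37 in number, had 34 rows, and 31 passed the filter. All 31 of these were called higher, with a median change of 4.67, against 7.17% called higher and a median of -0.38 over all genes tested. A gene near 0 in Vehicle passes the filter only if LPS raises it. Oas2, Oas3 and Epsti1 did not pass it, and over all 34 rows the median was 4.65. Ifit3, at 10.16, lay above Cxcl10, the top of that list at 9.73, and Ifit2, at 7.96, below Rsad2 at 8.19. Without LPS 1 and the block 30 of the 31 were called. Dropping pair 3 left 0 called, and so did the median of libraries.

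The low values of LPS 1 and Vehicle 2 were shared by that list. Of its 31 tested genes 30 were lowest in LPS 1 among LPS samples, against 25.9% of all tested genes, and 29 were lowest in Vehicle 2 among Vehicle samples, against 47.3% of all tested genes. The median change of the list was 3.61, 5.52 and 4.71 in pairs 1, 2 and 3. Macrophage markers, 13 in number, summed to 428, 231 and 186 TPM in LPS 1, 2 and 3, against 249, 111 and 174 TPM in Vehicle 1, 2 and 3, and 4 of their 9 tested genes rose and 1 fell, beside 7.17% and 22.2% of all tested genes. The sum was thus highest in LPS 1, where Ifit2 and Ifit3 were lowest among LPS samples, and lowest in Vehicle 2. Library sums ran from 336 to 511 TPM in LPS 1, 144 to 382 TPM in LPS 2 and 91.0 to 329 TPM in LPS 3. LPS 1 and LPS 2 thus overlapped, and the lowest Vehicle library was in Vehicle 3, at 66.4 TPM. Lyz2 made up 253 TPM of the LPS 1 sum and was not called (limma adjusted p = 0.405). Endothelial markers summed to 81.8, 34.5 and 89.7 TPM in LPS 1, 2 and 3, against 94.8, 20.2 and 73.9 TPM in Vehicle 1, 2 and 3. Of their 7 tested genes 2 rose and 1 fell, beside the same 7.17% and 22.2%. The part of these cells in the family's levels was not tested.

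**Figure D5:**
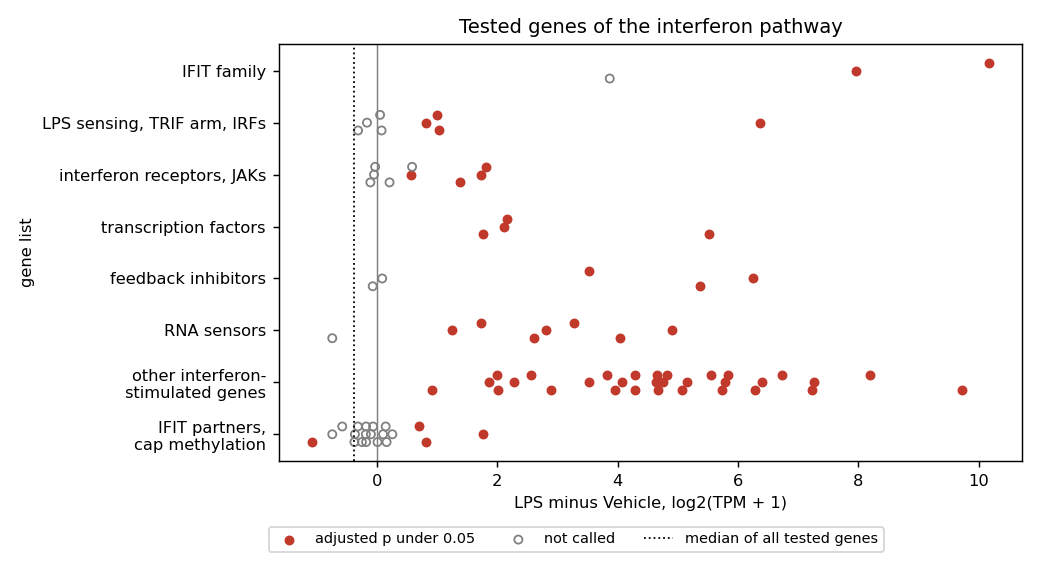
LPS minus Vehicle on the log2(TPM + 1) scale for the tested and reported genes of each list, filled where the limma adjusted p was under 0.05, with the median of all tested genes (-0.38) as a dotted line. The other interferon-stimulated genes are all filled and centre on 4.67, the partners of IFIT proteins centre on -0.13, and Ifit1 is open at 3.87.

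Genes for partners of the IFIT proteins and for cap methylation were mostly not called in the reported fit. Of 24 listed genes, 20 were tested, 3 rose, 1 fell and 16 were not called, with a median of -0.13. Over all tested genes 7.17% rose and 22.2% fell. Without LPS 1 and the block, 5 of the 20 rose and 6 fell, in a fit that called 1357 of 12393 genes higher and 5750 lower. With the block kept, 3 rose and 2 fell without pair 1, 1 rose and 0 fell without pair 2, and 0 were called without pair 3. How many partner genes were called thus depends on which samples are used and not on LPS 1 alone. Cmtr1, the enzyme that methylates the first nucleotide of the cap and so marks RNA as self, averaged 79.6 ± 15.5 TPM in LPS and 48.1 ± 5.65 TPM in Vehicle (SD, n = 3 each) and rose by 0.71 (limma adjusted p = 0.0363). Cmtr2, which methylates the second nucleotide, was not called at -0.57 (adjusted p = 0.0911). Cdkn1a, a cell cycle inhibitor gene, rose by 1.77 and its relative Cdkn1b fell by 1.07 (adjusted p = 0.0279), though Cdkn1b was not called under either scaling (adjusted p = 0.0719 and 0.0768). The 9 tested subunit genes of the initiation factor eIF3, which human IFIT1 and IFIT2 bind, lay between -0.37 and 0.11, and none was called in the reported fit. The listed subunit genes Eif3e and Eif3h had no row, so eIF3 was measured in part. Under median-ratio scaling they lay between 0.04 and 0.52, so their direction depends on the scaling.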

How the data were processed

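The authors deposited 1 table of TPM, which gives every Ensembl gene a symbol and an annotation line and every library a column. STAR 2.7.9a, RSEM 1.3.3 and the Rnor_6.0 build are named in the submitters' processing notes, per the labels, and the annotation release is not given in the sources used here. Per the labels' protocols, cDNA was made from polyA RNA with a low-input kit and amplified by PCR, which can add noise at low TPM. RSEM divides reads shared by paralogs by estimate. No rat genome or annotation of that build was used, so no member has coordinates in it. Columns starting with N were read as saline and with L as LPS, and 0 columns of other samples were present.

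For each sample the log2(TPM + 1) values of its 3 libraries were averaged. The filter asked for an average of 1 TPM or more, which 12393 genes passed and 20490 did not. The test was limma 3.58.1 in R 4.3.3, two-sided, with a variance trend, Benjamini-Hochberg adjustment and a block for the sample number, since pairing is stated in the design text. The residual degrees of freedom were 2, and the moderated variance added 4.97. Deviations of same-numbered samples correlated weakly across genes (r = 0.062, -0.017 and 0.069), so it is the design text alone that pairs them. Nothing says that samples are separate animals, so the p-values reflect only how far these samples vary. The code was tested on simulated data.

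The members, the 8 gene lists and the marker lists were chosen with earlier results of these data known. Of 109 listed genes 100 had a row, and 1 of these is not reported here. Genes named are the members, all rows with a symbol of Ifit and a digit, the 5 nearest genes to each member over the LPS libraries, genes of a list with the smallest p or a role named in the text, and the 4 nearest coding genes on each side of the family, a rule added later. Ears2l1, among these, was not analysed here. The alternatives tried were leaving out the block, fitting all 18 libraries with an estimated correlation, the median of libraries, other pseudocounts, filters, scalings and variance models, and leaving out each pair. Leaving out LPS 1 or LPS 3 was added after the data were seen.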

Additional observations from a re-analysis of the deposited data

How the results depend on the processing

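Without the replicate block no member changed its call: Ifit1, Ifit2 and Ifit3 had limma adjusted p of 0.221, 0.000716 and 7.49e-05. Ifit1 was called in 1 alternative, all 18 libraries with an estimated correlation (3.87, adjusted p = 0.00923), which treats the libraries of a sample partly as independent. Its adjusted p ran from 0.0824 to 0.391 in the others. Over the leave-one-out fits, its change ran from 0.59 to 5.89, that of Ifit2 from 7.19 to 8.80 and that of Ifit3 from 9.55 to 10.79. The call was lost with the median of libraries for Ifit2 (7.86) and Ifit3 (10.24), and without a filter for Ifit2 (7.96, adjusted p = 0.0501), where 23716 genes were tested. Leaving out pair 3 also ended the calls of Ifit2 (7.87) and Ifit3 (10.14), at a limma adjusted p = 0.196 each. No member changed direction in any alternative.

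The reported 889 genes called higher and 2757 lower became 0 and 0 with the median of libraries (1019 and 4167 at an unadjusted p under 0.05), and 18 and 2 without a filter. Leaving out a pair gave from 0 to 1004 higher and from 0 to 3595 lower, with 0 and 0 without pair 3 and 419 and 296 without pair 2. Without LPS 1 and the block the counts were 1357 and 5750, and without LPS 3 and the block 309 and 129, both added after the data were seen. All 18 libraries gave 5295 lower, median-ratio scaling 458 and quantile normalization 579. The cause was not tested. The median change of all genes was -0.38 as reported, -0.01 after scaling by median ratios and -0.12 after quantile normalization. Other interferon-stimulated genes called higher, 31 as reported, were 0 with the median of libraries and 1 without a filter, and from 0 to 31 in the leave-one-out fits. The TPM table gives no depth, so levels of a few TPM, as in Vehicle, have an unknown counting error.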
